A study of Mus musculus with 61 samples.

Results

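Axon guidance in vertebrates rests on a small number of ligand and receptor families, and the 68 genes that encode them are described here in the developing mouse brain and liver. Within the families, members were taken by symbol, with no use of their values: every protein-coding row of the expression table whose symbol is a semaphorin of classes 3 to 7, a plexin, a neuropilin, a Slit, a Robo, an Eph receptor, an ephrin, a netrin, an Unc5 receptor or Dcc. The families themselves were chosen with earlier results of these data known. They are 68 of 43346 gene rows and of 21474 protein-coding rows. The set holds 20 semaphorins, 9 plexins, 2 neuropilins, 3 Slits, 4 Robos, 14 Eph receptors (9 of class A and 5 of class B), 8 ephrins (5 of class A and 3 of class B), 3 netrins, 4 Unc5 receptors and Dcc.

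The study profiled mRNA from whole forebrain, midbrain, hindbrain and liver of mouse embryos and newborns, and 61 libraries of it are described here: 15 from forebrain, 16 from midbrain, 16 from hindbrain, and 14 from liver. The groups are the tissues at embryonic days 10.5 (E10.5, brain only), E11.5, E12.5, E13.5, E14.5, E15.5 and E16.5 and at the day of birth (P0); 30 of the 31 groups have 2 libraries, and forebrain at E10.5 has 1. The labels name no mutant, transgene or treatment, so all groups are unmanipulated tissue. The labels do not say that libraries came from separate animals, so p-values measure the spread between libraries, which may be technical. Levels are TPM, the share of all transcripts after scaling for gene length, so they can be compared between genes but keep no sequencing depth: depth is unknown, and no counting interval is given.

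Growing axons steer by cues that their growth cones read through surface receptors. Netrins are secreted proteins that attract axons through Dcc and repel them through Unc5 receptors; Slits are secreted repellents of the midline read by Robos. Semaphorins, secreted or membrane-bound, act through plexins, with neuropilins as co-receptors for the secreted class 3, and Eph receptor tyrosine kinases bind ephrins on touching cells, with signals in both directions. Most of these families also act outside the nervous system, among them ephrin-B2 with Ephb4, Robo4 and Plxnd1 in blood vessels.

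Promoter sequence was looked at first, since the members share a rule of names and not of regulation. Of the 68 members, 58 matched a RefSeq gene start in the promoter table (build GRCm38.p6), giving 74 windows of 250 bases just upstream of a start. Some members, among them Sema4a, Sema4d and Robo2, gave several windows. Some starts lay far from the annotated gene start, such as 354843 bases away for Robo1 and 271370 for Sema3a. The shares below include all these windows. The letters GGGCGG, the GC box bound by Sp-family factors, or the same box on the opposite strand, which reads CCGCCC, stood in 70.3% of member windows, 54.0% of the 15547 windows of tested protein-coding genes and 32.7% of all 32851 windows. Overlapping matches were counted. TATAAA, or TTTATA on the opposite strand, stood in 2.7% of member windows, those of Efnb2 and Slit2, against 7.3% and 12.4%. CCAAT, or ATTGG on the opposite strand, stood in 27.0% against 34.7% and 33.8%. By family it stood in 9 of 15 Eph receptor windows, among them overlapping windows of Epha7. Counts elsewhere were 7 of 27 for semaphorins, 3 of 9 for ephrins and 1 of 8 for Slits and Robos. They were 0 of 10 for plexins and neuropilins and 0 of 5 for netrins, Unc5 receptors and Dcc. CACGTG, an E-box that reads alike on both strands, stood in 5.4% of member windows against 7.7% and 6.0%. Another E-box, CAGCTG, which also reads alike on both strands, stood in 12 of 74 member windows against 1949 of 15547 and 4271 of 32851. The median G and C content of a window was 64.4% in members, 59.2% in tested genes and 52.4% in all windows, with family medians from 58.6% in Slits and Robos to 71.2% in the netrin and Unc5 group. A match is a description of letters, not a binding site.

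The windows of 6 members that the results below turn on are printed 5′ to 3′ on the gene's strand, GC boxes in capitals. Robo3 (chr9:37433176-37433425, minus strand, 12 CpG pairs, 3 boxes) had the largest fall, Ephb4 (chr5:137349859-137350108, plus strand, 12 pairs, 4 boxes) fell in all 4 tissues, and Sema7a (chr9:57939862-57940111, plus strand, 17 pairs, 2 boxes) rose in the 3 brain regions.
Robo3: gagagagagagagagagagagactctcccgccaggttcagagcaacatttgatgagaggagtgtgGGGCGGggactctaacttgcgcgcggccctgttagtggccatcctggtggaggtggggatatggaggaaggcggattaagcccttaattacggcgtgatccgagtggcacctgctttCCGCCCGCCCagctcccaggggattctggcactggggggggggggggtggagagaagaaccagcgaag
Ephb4: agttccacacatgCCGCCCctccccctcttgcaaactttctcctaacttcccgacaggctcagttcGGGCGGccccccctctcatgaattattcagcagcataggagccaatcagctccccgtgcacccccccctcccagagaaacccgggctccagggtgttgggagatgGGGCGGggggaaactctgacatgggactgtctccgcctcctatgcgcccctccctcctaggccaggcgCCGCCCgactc
Sema7a: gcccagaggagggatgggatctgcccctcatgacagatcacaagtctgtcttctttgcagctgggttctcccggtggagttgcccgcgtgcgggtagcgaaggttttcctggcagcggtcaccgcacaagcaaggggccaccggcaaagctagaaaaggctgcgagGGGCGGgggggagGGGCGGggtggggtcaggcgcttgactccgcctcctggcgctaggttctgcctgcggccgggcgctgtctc
Epha8 (chr4:136956817-136957066, minus strand) rose at different sizes by region and has the most CpG pairs of the 6, 46, with 84.0% G or C and 6 boxes. Epha1 (chr6:42373269-42373518, minus strand, 9 pairs, 3 boxes) was the 1 member lower in brain than in liver, and Plxnb3 (chrX:73756853-73757102, plus strand, 3 pairs, no box) rose most in hindbrain.
Epha8: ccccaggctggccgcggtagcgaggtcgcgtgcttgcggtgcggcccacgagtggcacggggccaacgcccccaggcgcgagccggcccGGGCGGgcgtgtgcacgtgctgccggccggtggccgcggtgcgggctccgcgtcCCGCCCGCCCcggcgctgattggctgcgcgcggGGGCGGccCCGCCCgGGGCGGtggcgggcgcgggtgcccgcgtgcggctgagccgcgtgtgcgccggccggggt
Epha1: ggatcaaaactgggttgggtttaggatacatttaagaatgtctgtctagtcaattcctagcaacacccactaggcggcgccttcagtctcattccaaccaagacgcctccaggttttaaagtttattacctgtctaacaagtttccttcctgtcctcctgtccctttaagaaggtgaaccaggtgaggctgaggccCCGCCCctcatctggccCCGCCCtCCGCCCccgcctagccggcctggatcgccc
Plxnb3: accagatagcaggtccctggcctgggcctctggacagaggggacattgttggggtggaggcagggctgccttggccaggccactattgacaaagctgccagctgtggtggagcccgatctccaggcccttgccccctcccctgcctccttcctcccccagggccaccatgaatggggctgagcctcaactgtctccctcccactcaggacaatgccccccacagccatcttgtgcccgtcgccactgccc

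Some libraries go against their labels or stand apart, and the contrasts below were set with this known. The 2 E15.5 libraries labelled midbrain lay nearer to hindbrain over the members (root mean square log2 distances 0.280 and 0.237 to hindbrain, 0.516 and 0.506 to midbrain), and the 2 labelled hindbrain lay nearer to midbrain (0.251 and 0.173, against 0.563 and 0.521). Hindbrain Hox markers summed to 439 to 471 TPM in the former and to 1 to 2 TPM in the latter. Regional and stage tests therefore leave E15.5 out. Counts with it added are given for the regional tests and not for the tests over stages. For 4 libraries of midbrain and hindbrain, heading and title name different stages, E16.5 and P0; the heading was used. A ratio of processed pseudogenes to their parent genes split the libraries into 33 low (up to 0.0077), 4 intermediate (0.0301 to 0.0387) and 24 high (0.1091 to 0.7674); the high set holds all E10.5, E12.5 and E15.5 libraries, both midbrain P0 libraries and 1 of hindbrain P0. At midbrain P0 this set and the stage cannot be told apart. The 2 hindbrain P0 libraries, 1 low and 1 high, differed over the members by a median of 0.135 log2 units, against 0.132 over all genes, and by at most 0.68 (Ephb4).

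A member counted as called in a comparison when limma's test on log2(TPM + 1) gave a Benjamini-Hochberg adjusted p below 0.05 over all 18655 genes tested together with a log2 fold change of at least 1 in size. Because 1 TPM is added, fold changes of low genes are understated. Of the members, 67 reached 1 TPM in at least 2 libraries and were tested; Ntn5, a netrin relative, did not and ranged from 0 to 1.08 TPM. All fold changes are log2 values, written with ± 1 standard error (SE). Shares of all genes called belong to this fit, and none is given for other settings.

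**Figure D1:**
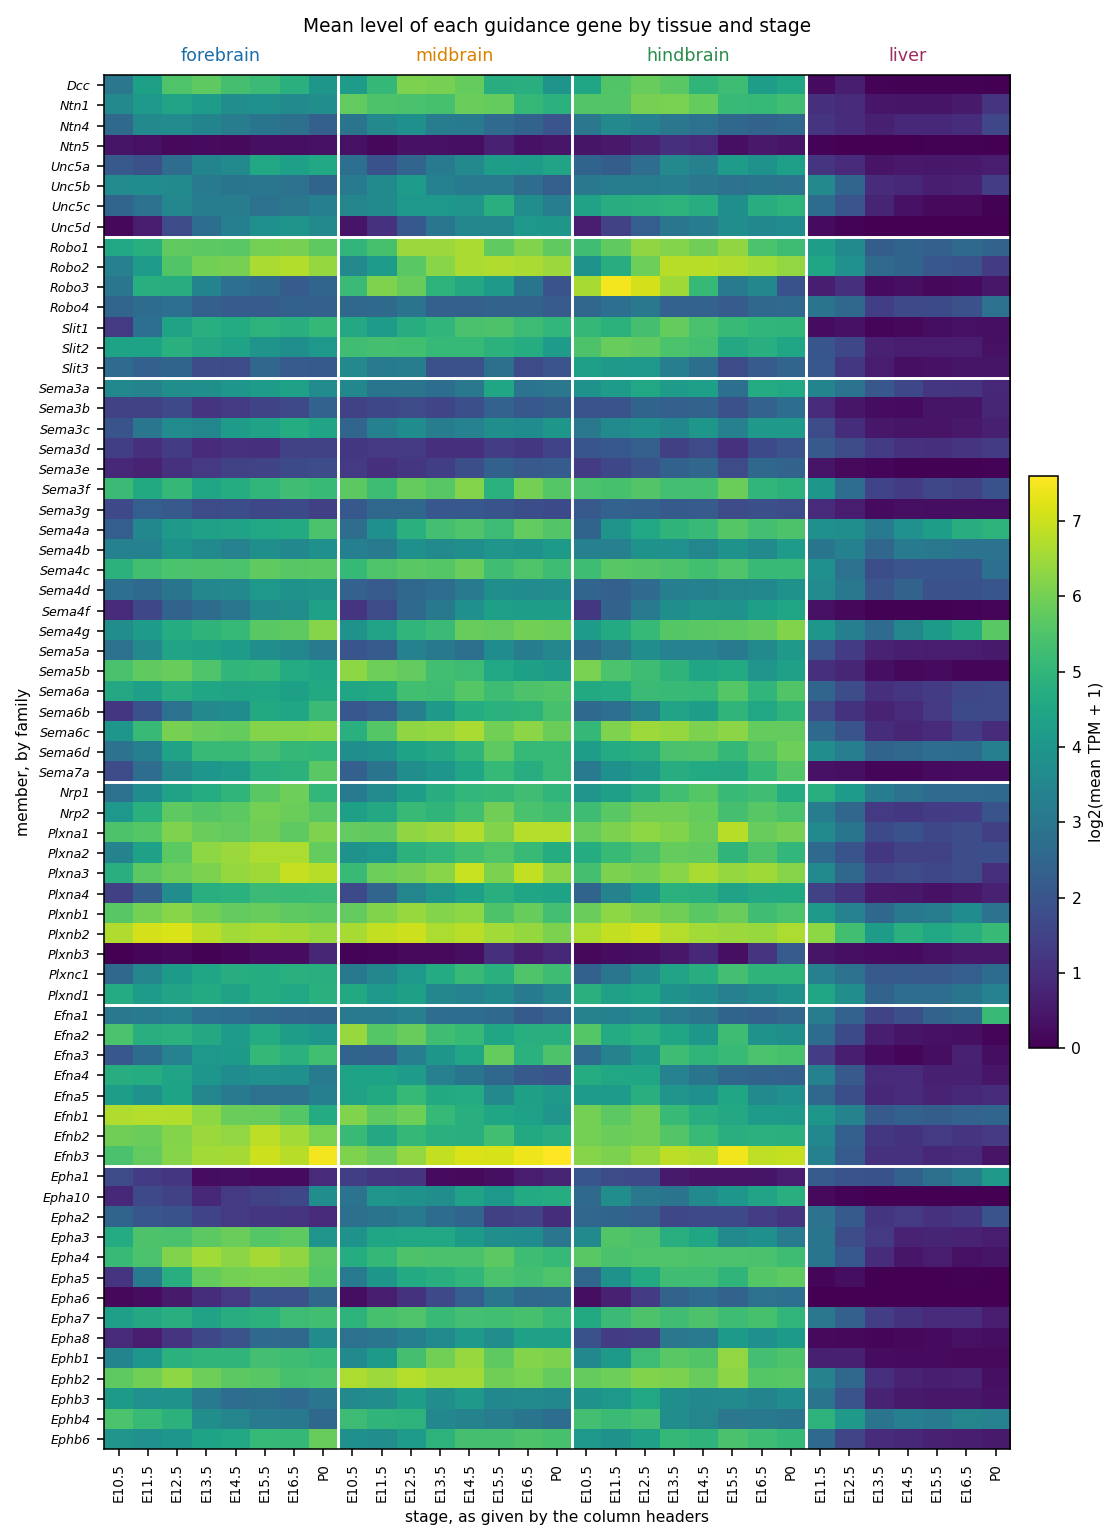
Mean level of each of the 68 members in each of the 31 groups, coloured by log2(mean TPM + 1), with rows ordered by family and columns by tissue and stage. The 3 brain regions hold most of the signal and the liver columns are mostly dark, the colour of low levels. Exceptions in liver include Plxnb2, Sema4g and Sema4a, at E11.5 also Ephb4, Nrp1 and Robo2, and late Efna1 and Epha1.

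The guidance genes were mostly brain genes. Averaged over E11.5 to P0, 57 of 67 members were called between the 3 brain regions (42 libraries) and liver (14 libraries), 56 higher in brain and 1 lower; over all genes tested the share called was 53.3%, with 44.0% higher and 9.33% lower. The members' median log2 fold change was 2.89, against 0.82 for all genes. The scaling matters for that second value: with median-of-ratios scaling the all-gene median was 0.02, and 49 members were called, 48 of them higher in brain. In bulk tissue, fewer cells of a type and less RNA per cell cannot be told apart, here and below. All 8 neuron markers and all 7 neural progenitor markers were higher in brain too, and the neuron markers summed to 4 to 40 TPM in liver libraries; their part in the result was not tested.

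Netrin, Slit and ephrin ligands set brain apart. Ntn1, the netrin of the floor plate, ranged from 10.8 to 75.1 TPM with a median of 35.3 in brain and from 0.3 to 1.24 TPM with a median of 0.475 in liver, without overlap (4.25 ± 0.05, adjusted p = 1.59e-40). Its attractive receptor Dcc ranged from 11.2 to 67.8 TPM with a median of 35 in brain and from 0.01 to 0.76 TPM with a median of 0.05 in liver, again apart (4.95 ± 0.06). Slit1, a secreted repellent, was at most 0.4 TPM in any liver library and at least 5.53 TPM in any brain library (4.64 ± 0.04). Efnb3, a transmembrane ephrin, had the highest brain mean of any ligand named here, 115 against 2.42 TPM in liver, and the ranges were from 53.1 to 194 TPM with a median of 112 in brain and from 0.27 to 9.52 TPM with a median of 0.995 in liver (5.36 ± 0.03, adjusted p = 2.74e-48). The libraries of both tissues did not overlap for 43 of the 67 members, against 35.7% of all genes tested.

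Receptors followed the same order. Epha5, a receptor of topographic maps, averaged 37.8 against 0.053 TPM in liver (5.04 ± 0.04). Ephb1, which steers part of the retinal axons at the chiasm, averaged 43.7 against 0.287 TPM (4.99 ± 0.04). Among plexins, Plxna3 averaged 81.8 against 3.69 TPM (4.34 ± 0.03) and Plxna1 72.5 against 4.2 TPM (4.0 ± 0.04); both are signalling receptors for class 3 and class 6 semaphorins. Nrp2, the co-receptor of Sema3f, averaged 46.2 against 3.09 TPM (3.67 ± 0.03). Of the semaphorins themselves 16 of 20 were called, all higher in brain (53.3% of all genes called, 44.0% higher). They were led by Sema6c (4.71 ± 0.05), Sema5b (4.58 ± 0.03) and Sema7a, the one anchored by a lipid tail (4.17 ± 0.04).

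The exceptions were few. Epha1, an Eph receptor best known from epithelia, ranged from 2.71 to 18.4 TPM with a median of 4.18 in liver and from 0.12 to 2.47 TPM with a median of 0.42 in brain, with every liver library above every brain library (-1.95 ± 0.03, adjusted p = 3.69e-35). Efna1, a ligand of class A receptors, averaged 6.19 against 8.66 TPM and was not called (0.06 ± 0.06, adjusted p = 0.357). Its liver values ran from 1.8 to 38.4 TPM with a median of 4.46, so they spread across the brain range of 2.86 to 10.9 TPM. The vessel-linked Ephb4 (0.13 ± 0.05), Robo4 (0.34 ± 0.04) and Plxnd1 (0.81 ± 0.06) were not called either, nor were Epha2, Plxnb3, Sema3d, Sema4a, Sema4b and Sema4d. Under quantile normalization Efna1 and Ephb4 were called lower in brain, at -1.16 and -1.05. Of 8 endothelial markers, 2 were called, both higher in brain.

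**Figure D2:**
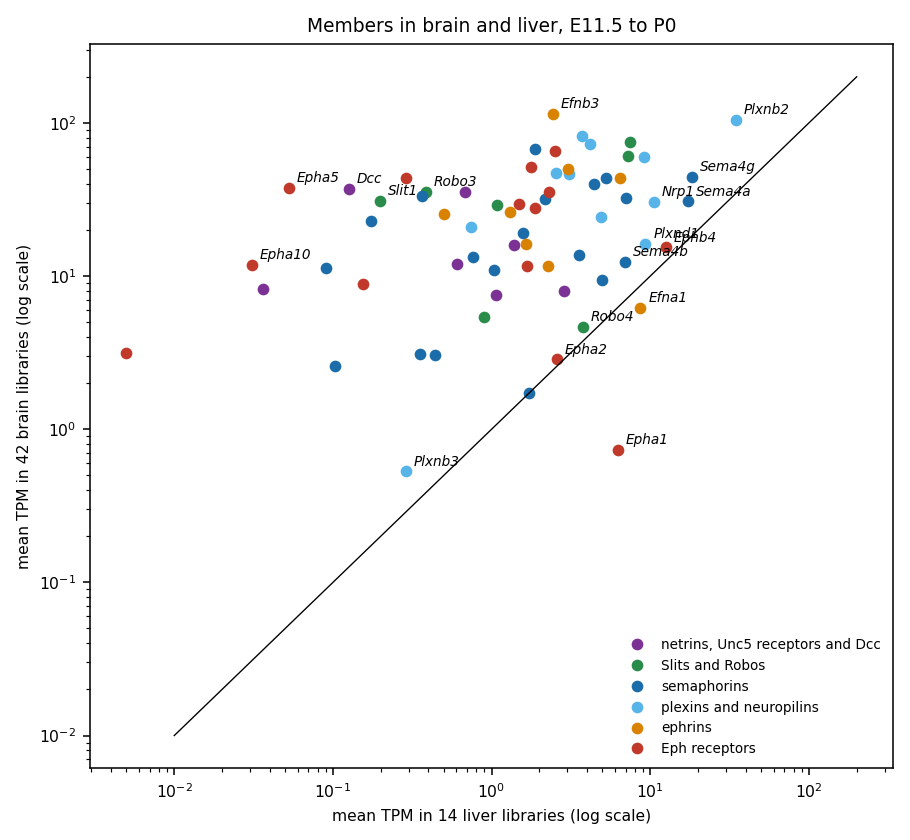
Mean level of each member in brain (42 libraries, vertical axis) against liver (14 libraries, horizontal axis), E11.5 to P0, in TPM on log axes; points are coloured by family and the diagonal marks equal levels. Epha1, at 0.731 against 6.22 TPM, lies farthest below the diagonal, and most members lie above it.

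Between E11.5 and P0 more members were called higher than lower in each brain region. In forebrain 36 of 67 were called, 27 higher and 9 lower at P0 (30.9% of all genes called, 19.2% higher and 11.8% lower); in midbrain 35, 23 higher and 12 lower (33.4%, 18.3% and 15.1%); in hindbrain 34, 21 higher and 13 lower (28.0%, 16.2% and 11.8%). The members' median log2 fold changes were 0.56, 0.36 and -0.12, against 0.02, -0.01 and -0.02 for all genes. With median-of-ratios scaling the hindbrain split was 21 higher and 8 lower. In 18 members the level rose in all 3 regions, in 8 it fell in all 3, in 23 it was called in none, and no member was called in opposite directions in 2 regions. Below that size directions did part: Robo1 was 0.95 ± 0.12 in forebrain and -0.51 ± 0.12 in hindbrain, both with an adjusted p below 0.05. The 18 were Efna3, Epha5, Epha6, Epha8, Ephb1, Ephb6, Plxna4, Plxnc1, Robo2, Sema4a, Sema4d, Sema4f, Sema4g, Sema6b, Sema6d, Sema7a, Unc5a and Unc5d. The 8 were Efna4, Efnb1, Epha2, Epha3, Ephb4, Ntn4, Robo3 and Sema5b. No share over all genes is given for these joint counts, so they cannot be called many or few. With 2 libraries per group, both P0 libraries lay on one side of both E11.5 libraries in 80.9% of all genes in forebrain, 88.5% in midbrain and 82.9% in hindbrain, so such separation alone says little.

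Cell markers moved over the same interval. The 8 neuron markers summed to 1342 to 1387 TPM at E11.5 and 5423 to 6033 TPM at P0 in forebrain, 1976 to 2086 and 6245 to 6283 TPM in midbrain, and 2556 to 2720 and 5239 to 5246 TPM in hindbrain, with 7, 6 and 3 of 8 called higher. Of 7 neural progenitor markers, 6, 6 and 3 were called lower, and of 6 astrocyte markers all were called higher in each region. Of 8 pericyte and mesenchyme markers, 5 were called lower in each region, and their sum in forebrain was 521 to 575 TPM at E11.5 and 196 to 231 TPM at P0. The part of these shifts in the members' changes was not tested.

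**Figure D3:**
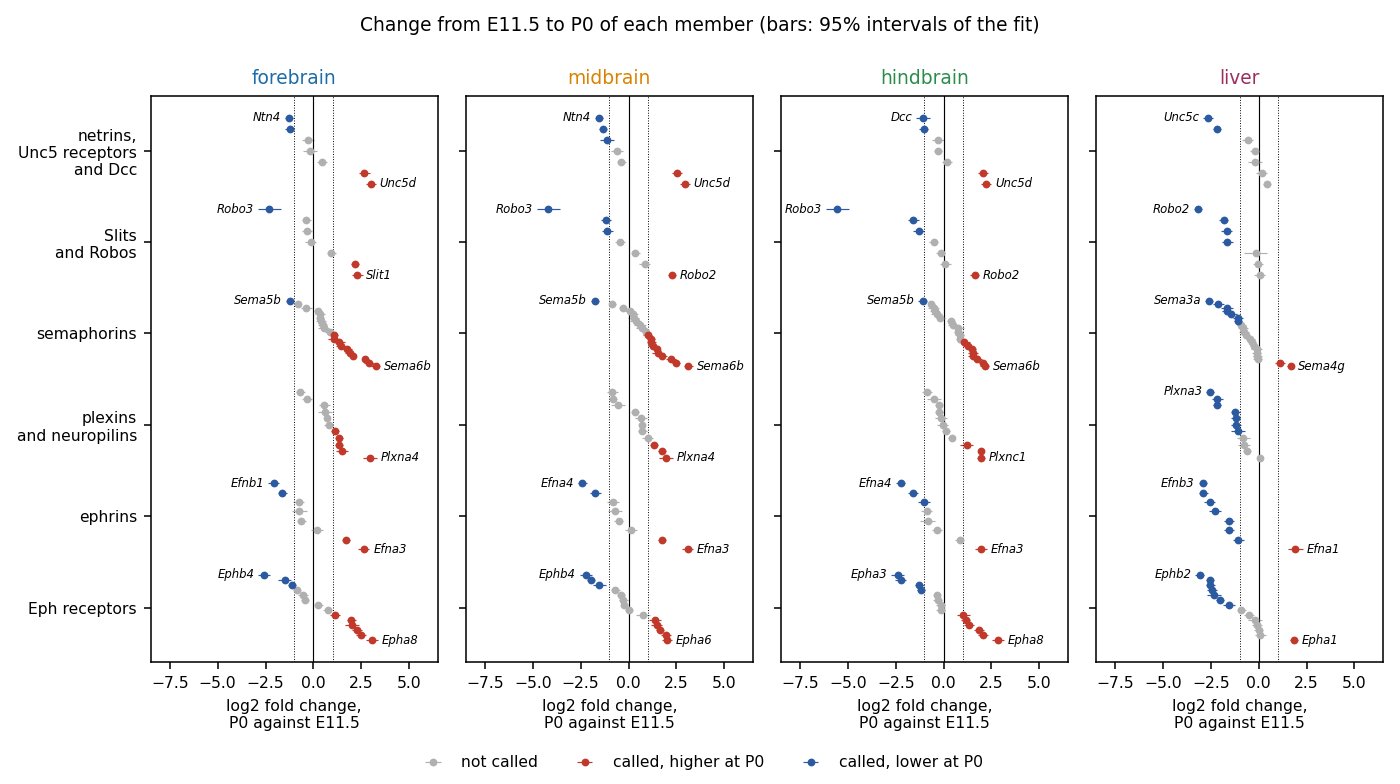
Log2 fold change from E11.5 to P0 for each tested member in forebrain, midbrain, hindbrain and liver, grouped by family; bars are 95% intervals and dotted lines mark changes of 1 in size. Points spread to both sides in the brain regions, Robo3 in hindbrain lies lowest at -5.56, and in liver most points lie below 0.

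Among the netrin receptors, the repulsive Unc5a and Unc5d rose. Unc5d went from 0.4 and 0.59 TPM in the 2 forebrain libraries of E11.5 to 10.2 and 11.8 at P0 (3.01 ± 0.13, adjusted p = 4.61e-21), and by 2.94 ± 0.13 in midbrain and 2.22 ± 0.13 in hindbrain. Unc5a went from 2.51 and 2.87 to 21.7 and 22.9 TPM in forebrain (2.66 ± 0.14), with 2.53 ± 0.14 and 2.06 ± 0.14 in the other regions. Unc5b, which also acts in vessels, went the other way in forebrain, from 11.4 and 12.3 to 4.4 and 4.44 TPM (-1.24 ± 0.11), and in midbrain (-1.31 ± 0.11). So the 4 Unc5 receptors split, with Unc5c called in no region.

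Dcc was highest between the ends of the interval. In midbrain it stood at 31.5 and 33.5 TPM at E11.5, 67.8 and 67 at E12.5 and 14.1 and 14.2 at P0, and the P0 libraries were below all others shown (-1.15 ± 0.18, adjusted p = 7.25e-07). In hindbrain it went from 44.7 and 45.8 to 23.6 and 18.6 TPM (-1.07 ± 0.18), and in forebrain, where the E11.5 libraries were 11.2 and 26.5 TPM, the difference was not called (-0.18 ± 0.18, 95% interval -0.55 to 0.18). The midbrain and hindbrain calls ended with median-of-ratios scaling or with the pseudogene-ratio set as a term. That term rests on the pair of hindbrain P0 libraries alone, since no other group holds both the low and the high set. The midbrain value was -0.67 with titles as stages. The hindbrain value was -0.91 without the high-ratio P0 library, within the low-ratio set or without the 4 libraries of disputed stage. For hindbrain, these settings leave the same E11.5 and P0 libraries, so they are a single check. Among ligands, Ntn4, a netrin of basement membranes, fell in forebrain (-1.26 ± 0.11), midbrain (-1.56 ± 0.11) and hindbrain (-1.05 ± 0.11, a call that ended with median-of-ratios scaling). Ntn1 was not called, at -0.29 ± 0.15, -0.61 ± 0.15 and -0.3 ± 0.15.

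The steepest course of any member was that of Robo3, the divergent Robo that commissural axons need to cross the midline. In hindbrain it stood at 167 and 185 TPM at E11.5, 87.5 and 92.5 at E13.5, 33.8 and 32.4 at E14.5 and 2.57 and 2.91 at P0, each of these stages below the one before (-5.56 ± 0.30 from E11.5 to P0, adjusted p = 4.77e-18). In midbrain it went from 67.3 and 71.3 to 2.72 and 2.96 TPM (-4.19 ± 0.30) and in forebrain from 26.9 and 25.8 to 5.49 and 3.68 TPM (-2.31 ± 0.30). The regions thus began far apart and ended within a few TPM of each other. The 2 hindbrain libraries of E10.5, 129.6 and 61.5 TPM, were more than a factor of 2 apart.

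Robo2, a main Slit receptor, moved the other way. It went from 15.8 and 19.2 to 76.5 and 89.6 TPM in forebrain (2.19 ± 0.11, adjusted p = 2.34e-19), by 2.25 ± 0.11 in midbrain and by 1.62 ± 0.11 in hindbrain. Robo1, its close relative, was called in no region (0.95 ± 0.12, 0.36 ± 0.12 and -0.51 ± 0.12), although the forebrain value was 1.25 without E11.5 replicate 2, and Robo4, the endothelial Robo, ranged from 3.32 to 7.76 TPM with a median of 4.37 over all brain libraries. Of the repellents, Slit1 rose in forebrain, from 5.53 and 6.19 to 34 and 30.6 TPM (2.28 ± 0.14), and was not called in midbrain (0.85 ± 0.14) or hindbrain (0.07 ± 0.14). Slit2 fell in midbrain, from 37.9 and 42.3 to 17.1 and 17.6 TPM (-1.16 ± 0.13), and in hindbrain, from 59.7 and 51.3 to 22 and 21.4 (-1.31 ± 0.13). Slit3 fell in the same regions (-1.11 ± 0.14 and -1.58 ± 0.14). The midbrain calls ended when titles set the stage of the 4 disputed libraries (Slit2) or with median-of-ratios scaling (Slit3).

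**Figure D4:**
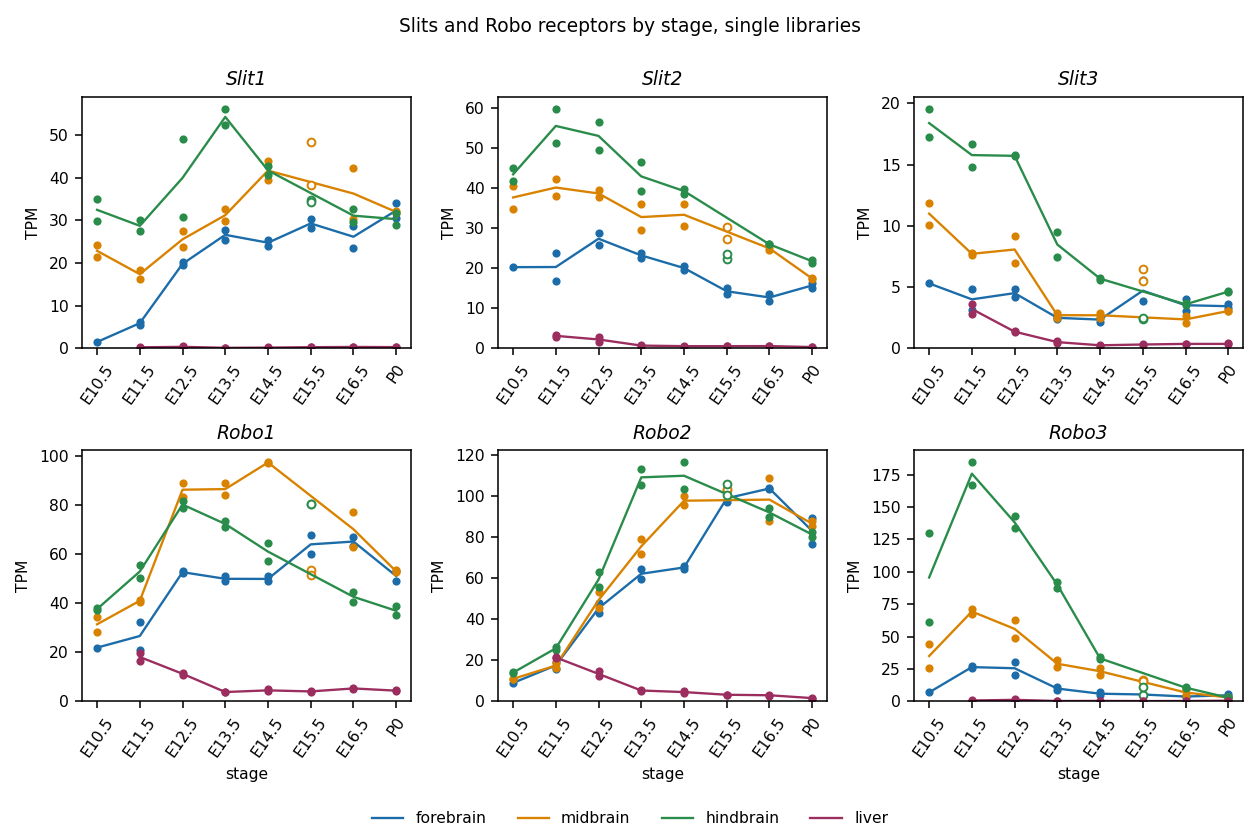
Levels of Slit1, Slit2, Slit3, Robo1, Robo2 and Robo3 in TPM (vertical axes) by stage in forebrain, midbrain, hindbrain and liver; points are libraries, lines join stage means, and open circles are the E15.5 libraries labelled midbrain and hindbrain, which the lines skip. Robo3 in hindbrain starts at 167 and 185 TPM at E11.5 and ends at 2.57 and 2.91 TPM, while Robo2 climbs in the 3 brain regions.

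Of the 20 semaphorins, 10 rose in forebrain, 10 in midbrain and 8 in hindbrain (19.2%, 18.3% and 16.2% of all genes), and Sema5b was the 1 that fell in each. The largest rises were in membrane-bound classes. Sema6b, a transmembrane ligand of plexin-A receptors, went from 3.0 and 2.58 to 35.6 and 34.8 TPM in forebrain (3.26 ± 0.11, adjusted p = 2.29e-23), with 3.12 ± 0.11 in midbrain and 2.15 ± 0.11 in hindbrain. Sema7a, which signals through Plxnc1 and integrins, went from 5.37 and 5.87 to 42.4 and 55.6 TPM in forebrain (2.91 ± 0.12), with 2.21 ± 0.12 and 1.74 ± 0.12 in the other regions. Sema4f, a class 4 transmembrane semaphorin, went from 4.34 and 4.37 to 20.5 and 22 TPM in hindbrain (2.05 ± 0.10), and by 2.72 ± 0.10 and 2.48 ± 0.10 in forebrain and midbrain.

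Sema5b, a transmembrane semaphorin with thrombospondin repeats, had levels of 57.3 and 61.5 TPM in midbrain at E11.5 and 17.9 and 15.9 at P0 (-1.76 ± 0.11, adjusted p = 1.72e-16). It also fell in forebrain (-1.23 ± 0.11) and hindbrain (-1.1 ± 0.11, ended by median-of-ratios scaling). Of the secreted class 3 members, Sema3c rose in forebrain (1.46 ± 0.13) and Sema3e in forebrain (1.08 ± 0.10) and midbrain (1.16 ± 0.10), while Sema3a, Sema3b, Sema3d, Sema3f and Sema3g were called in no brain region. Sema3f, the ligand of Nrp2, stood at 35.2 and 38.4 TPM in midbrain at E11.5 and 46.3 and 49.4 at P0 (0.37 ± 0.14, not called). Sema4c, among the highest semaphorins in TPM, was at 38 and 39.2 and 49.2 and 49.6 TPM at the same stages in forebrain (0.35 ± 0.11, not called).

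Of the 11 semaphorin receptors, 5, 3 and 3 rose in forebrain, midbrain and hindbrain (19.2%, 18.3% and 16.2% of all genes) and none was called lower, although Plxnb1 reached -0.84 ± 0.13 in midbrain and -0.86 ± 0.13 in hindbrain. Plxna4, a signalling partner of neuropilins, went from 2.65 and 4.88 to 35 and 35.2 TPM in forebrain (2.96 ± 0.17, adjusted p = 3.53e-17), with 1.95 ± 0.17 and 1.2 ± 0.17 in midbrain and hindbrain. Plxnc1, the receptor of Sema7a, went from 6.97 and 6.91 to 29.1 and 30.1 TPM in hindbrain (1.95 ± 0.10) and by 1.73 ± 0.10 in midbrain. Nrp1, the receptor of Sema3a, rose in forebrain (1.35 ± 0.10) and midbrain (1.33 ± 0.10). Plxnb2, the plexin with the highest level at E11.5, was at 138 and 138 TPM in forebrain and at 84.4 and 85.6 TPM at P0 (-0.69 ± 0.11, not called).

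Plxnb3, a receptor of Sema5a, was near 0 in most libraries and was called higher at P0 in hindbrain only. There it was 0.2 and 0.2 TPM at E11.5, 1.2 and 1.25 at E16.5 and 3.58 and 3.61 at P0 (1.94 ± 0.07, adjusted p = 6.30e-22). It also rose in forebrain, from 0.05 and 0.1 TPM to 0.63 and 0.86 at P0 (0.70 ± 0.07). In midbrain it went from 0.09 and 0.09 to 0.84 and 0.73 TPM (0.71 ± 0.07). Neither was called, and at such levels the added 1 TPM understates the fold change. At P0 both regions lay below both hindbrain libraries. The sum of 6 oligodendrocyte lineage markers was 75 to 85 TPM at E11.5 and 377 to 387 TPM at P0 in hindbrain, against 132 to 158 TPM in forebrain and 187 to 191 TPM in midbrain at P0, and 4 of the 6 were called higher in hindbrain. Their part in the result was not tested.

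Ephrins split by member, not by class. Efna3, a lipid-anchored ephrin, went from 6.7 and 4.27 to 35.5 and 41.5 TPM in forebrain (2.63 ± 0.14, adjusted p = 6.95e-18), from 4.53 and 3.93 to 43.9 and 42.7 in midbrain (3.08 ± 0.14) and by 1.95 ± 0.14 in hindbrain. Efnb3, a ligand that bars axons at the midline, rose in forebrain (1.7 ± 0.10) and midbrain (1.74 ± 0.10). Efna4 fell, from 20.1 and 20.4 to 3.58 and 2.52 TPM in midbrain (-2.4 ± 0.12), -2.24 ± 0.12 in hindbrain and -1.62 ± 0.12 in forebrain. Efnb1, a transmembrane ligand of neural progenitors and mesenchyme, went from 101 and 111 to 23.8 and 25.1 TPM in forebrain (-2.07 ± 0.14), with -1.74 ± 0.14 and -1.6 ± 0.14 elsewhere. Thus each class held 1 member that rose and 1 that fell in forebrain. Efnb2 fell in hindbrain, from 55.7 and 57.8 to 23.6 and 31 TPM (-1.04 ± 0.16), a call that ended with median-of-ratios scaling (-0.91) and without replicate 1 of P0 (-0.85).

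The Eph receptors held both rises and falls: 6 and 3 of 14 in forebrain, 5 and 3 in midbrain, 6 and 4 in hindbrain. Over all genes 19.2% rose and 11.8% fell in forebrain, 18.3% and 15.1% in midbrain, and 16.2% and 11.8% in hindbrain. Epha8, a class A receptor of early midbrain, went from 0.49 and 0.59 to 12.7 and 10.9 TPM in forebrain (3.05 ± 0.15, adjusted p = 3.37e-19) and from 1.46 and 1.53 to 15.2 and 18.5 in hindbrain (2.83 ± 0.15). Epha5 went from 5.73 and 10.01 to 45 and 50.2 TPM in forebrain (2.49 ± 0.13). Epha6, from the same class, rose from under 1 TPM to 6.54 and 5.2 TPM in hindbrain (2.07 ± 0.13), with 2.28 ± 0.13 and 2.0 ± 0.13 in forebrain and midbrain. These 3 shared the direction in all 3 regions. Among class B, Ephb1 rose in midbrain, from 16.2 and 16.9 to 68.3 and 67.7 TPM (1.98 ± 0.13), and Ephb6, whose kinase domain is inactive, rose there by 1.63 ± 0.11.

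Of the receptors that fell, Ephb4, the vein receptor of Efnb2, went from 33.1 and 34.4 to 4.55 and 5.26 TPM in forebrain (-2.56 ± 0.15, adjusted p = 5.54e-17), with -2.24 ± 0.15 in midbrain and -2.25 ± 0.15 in hindbrain. The 8 endothelial markers summed to 136 to 151 TPM in forebrain at E11.5 and to 126 to 142 TPM at P0, with 1 called higher and 1 lower. Epha3, a class A receptor, went from 45.4 and 45.5 to 7.16 and 8.38 TPM in hindbrain (-2.41 ± 0.17), and fell in forebrain (-1.5 ± 0.17) and midbrain (-1.53 ± 0.17). Epha2, a receptor of epithelia, fell from 6.36 and 6.94 to 0.96 and 1.02 TPM in midbrain (-1.94 ± 0.11). Ephb2 and Epha4, among the highest Eph receptors, were not called, at -0.54 ± 0.12 and 0.26 ± 0.11 in forebrain.

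In liver the members mostly fell. Of 67, 38 were called between E11.5 and P0, 4 higher and 34 lower (46.3% of all genes called, 8.14% higher and 38.2% lower), and the median was -1.07 against -0.69 for all genes. With median-of-ratios scaling the all-gene median was -0.01 and the split was 7 higher and 20 lower; with quantile normalization it was -0.18, with 4 higher and 24 lower. Many liver levels are near the added 1 TPM: with 0.1 TPM added in its place, 51 members were called, 4 higher and 47 lower. The shares of all genes called belong to the unaltered fit. None is given for these alternatives, so their counts cannot be set against all genes.

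The falls ran through all families. Robo2 went from 21 and 21.7 TPM at E11.5 to 5.43 and 5.02 at E13.5 and 1.24 and 1.81 at P0 (-3.16 ± 0.11, adjusted p = 4.88e-24), while it rose in brain. Ephb2, an axon and synapse receptor, went from 9.13 and 10.1 to 0.28 and 0.22 TPM (-3.08 ± 0.12), and Efnb3 from 9.52 and 8.6 to 0.27 and 0.36 TPM (-2.93 ± 0.10). Unc5c went from 4.9 and 5.92 to 0.02 and 0.03 TPM (-2.64 ± 0.13) and Sema3a from 9.59 and 10.1 to 0.81 and 0.82 TPM (-2.58 ± 0.10). Nrp1 went from 25.4 and 27 to 4.48 and 5.71 TPM (-2.16 ± 0.10). By P0 most of these genes were near or below 1 TPM, Nrp1 excepted. Robo1 (-1.84 ± 0.12) and Sema4d (-1.65 ± 0.15) also fell, calls that ended with median-of-ratios scaling and, for Sema4d, with quantile normalization (-0.96).

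The 4 that rose in liver did so late. Efna1 stood at 8.06 and 8.45 TPM at E11.5, 2.06 and 1.8 at E13.5, 4.5 and 5.89 at E16.5 and 38.4 and 29.8 at P0 (1.91 ± 0.19, adjusted p = 2.86e-11). Epha1, a receptor of class A ephrins, went from 3.73 and 3.62 at E11.5 to 8.26 and 7.86 at E16.5 and 13.6 and 18.4 TPM at P0 (1.84 ± 0.10). Sema4g, a class 4 semaphorin, went from 14.4 and 15.2 to 5.4 and 5.18 and then 49.6 and 48.6 TPM (1.67 ± 0.09), and Sema4a from 12.1 and 13.9 to 32.1 and 26.5 TPM (1.12 ± 0.12, 0.98 and not called without P0 replicate 1). Efna1, Sema4g and Sema4a were lower at E13.5 than at E11.5 in both libraries before the rise. Sema4a and Sema4g were the 2 members higher at P0 in all 4 tissues, and Efna4, Efnb1, Epha3 and Ephb4 the 4 lower in all 4. For these joint counts too, no share over all genes is given. Over the same interval the 8 hepatocyte markers summed to 11897 to 12897 TPM and then 156223 to 162887 TPM, 7 of 8 called higher. Pericyte and mesenchyme markers summed to 518 to 551 TPM and then 237 to 277 TPM, 7 of 8 called lower, and no endothelial marker of 8 was called. The part of these shifts was not tested.

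Between brain regions few members differed over the 6 stages compared (E11.5, E12.5, E13.5, E14.5, E16.5 and P0; 12 libraries a region). Forebrain against midbrain called 8 members, 4 higher and 4 lower in forebrain (2.36% of all genes called, 0.852% higher and 1.51% lower); midbrain against hindbrain called 2, both lower in midbrain (1.76% of all genes, 0.461% higher and 1.3% lower); forebrain against hindbrain called 6, 1 higher and 5 lower in forebrain (4.47% of all genes, 0.906% higher and 3.56% lower). With E15.5 added these counts were 9, 1 and 6. The medians were -0.16, -0.13 and -0.20, against -0.04, -0.02 and -0.07 for all genes. With quantile normalization midbrain against hindbrain called 2 higher and 2 lower.

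Ntn1 was lowest in forebrain, and Unc5c was highest in hindbrain. Ntn1 ranged from 10.8 to 21.6 TPM with a median of 13.8 in forebrain, from 26.7 to 60.3 TPM with a median of 40.6 in midbrain and from 29.9 to 75.1 TPM with a median of 49.2 in hindbrain, so that no forebrain library reached the others (-1.38 ± 0.06 against midbrain, adjusted p = 1.17e-19, and -1.67 ± 0.06 against hindbrain). Midbrain and hindbrain overlapped (-0.3 ± 0.06, not called). Unc5c, which repels axons from Ntn1, was ordered from forebrain (from 4.9 to 10.6 TPM with a median of 8.15) through midbrain (from 8.57 to 16.9 TPM with a median of 12.9) to hindbrain (from 23.6 to 30.4 TPM with a median of 26.4), forebrain and midbrain overlapping. It differed from hindbrain in forebrain (-1.63 ± 0.05) and in midbrain (-1.02 ± 0.05), and the latter call ended with E15.5 added (-0.73), with median-of-ratios scaling, within the low pseudogene-ratio set and when any 1 of 3 libraries was left out (down to -0.99).

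Ephrins and Eph receptors made up 6 of the 8 calls between forebrain and midbrain. Higher in forebrain were Efnb2, from 49.2 to 95.7 TPM with a median of 76.9 against from 19.9 to 34 TPM with a median of 26.7 (1.48 ± 0.06, adjusted p = 3.34e-20), Efnb1 (69.4 against 33.9 TPM, 1.02 ± 0.06) and Epha3 (43.2 against 16.9 TPM, 1.29 ± 0.07). Lower were Epha10, from 0.68 to 16 TPM with a median of 1.89 against from 12.4 to 27.6 TPM with a median of 17.4 (-2.45 ± 0.07), and Epha8, from 0.49 to 12.7 TPM with a median of 2.49 against from 6.51 to 23.1 TPM with a median of 13.54 (-1.84 ± 0.06). Efna5, the graded ligand of the tectal map, was also lower in forebrain (11.3 against 23.2 TPM, -1.05 ± 0.05, not called with quantile normalization). Epha10 has an inactive kinase, and its only high forebrain libraries were those of P0, at 16 and 8.67 TPM. Plxna2, a semaphorin receptor, was higher in forebrain (64.7 against 28.8 TPM, 1.02 ± 0.06, a call lost when any 1 of 6 libraries was left out, with values down to 0.96).

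Hindbrain held more Sema3a, a secreted repellent. It ranged from 16.46 to 25.6 TPM with a median of 19.6 in hindbrain and from 5.71 to 8.09 TPM with a median of 6.66 in midbrain, without overlap (-1.47 ± 0.04, adjusted p = 4.23e-25). Forebrain lay between, from 8.31 to 20.5 TPM with a median of 13. Against forebrain, hindbrain was higher in Robo3 (12.6 against 75 TPM in hindbrain, -1.88 ± 0.12), Epha10 (-1.99 ± 0.07) and Slit3 (3.37 against 8.97 TPM, -1.03 ± 0.06), and lower in Efnb1 (1.03 ± 0.06). The Slit3 call ended with either scaling alternative, with E15.5 added, without E12.5, within the low pseudogene-ratio set and without forebrain E11.5 replicate 1 (-0.99). The Efnb1 call ended without either of 2 hindbrain libraries (down to 0.98), and that between forebrain and midbrain without either of 2 others (down to 0.99). Sema3a was 20.3 and 22.8 TPM in the E15.5 libraries labelled midbrain and 5.49 and 6.19 TPM in those labelled hindbrain, the reverse of every other stage compared.

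**Figure D5:**
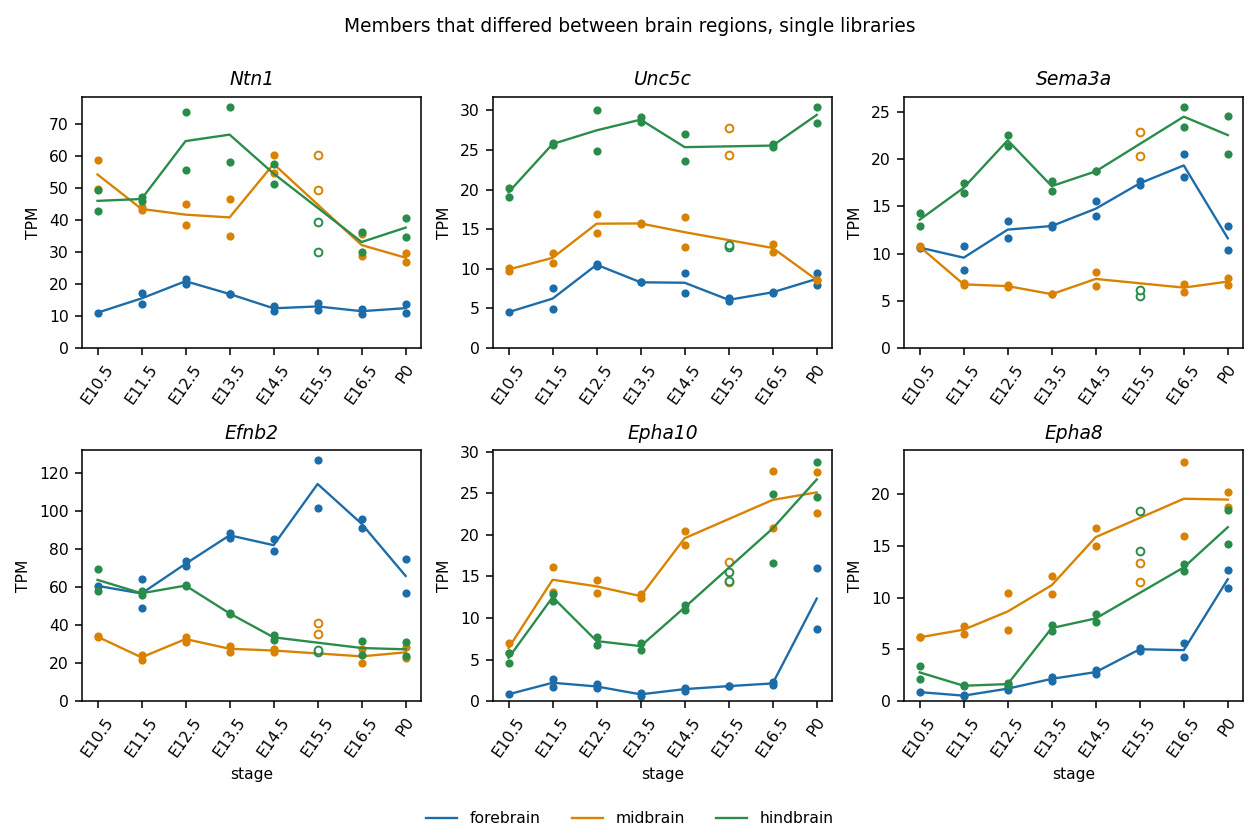
Levels of Ntn1, Unc5c, Sema3a, Efnb2, Epha10 and Epha8 in TPM (vertical axes) by stage in forebrain, midbrain and hindbrain; points are libraries, lines join stage means, and open circles are the E15.5 libraries labelled midbrain and hindbrain, which the lines skip. Forebrain lies lowest for Ntn1, hindbrain lies highest for Unc5c and forebrain lies highest for Efnb2 from E12.5 on, and the open circles of Unc5c and Sema3a lie on the line of the other region.

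Whether a member's change from E11.5 to P0 differed between regions was tested directly. Forebrain against midbrain gave 9 calls, 8 with the more positive change in forebrain (5.0% of all genes called, 3.26% and 1.73% by direction); midbrain against hindbrain gave 7, 4 more positive in midbrain (4.72%, 2.12% and 2.61%); forebrain against hindbrain gave 15, 13 more positive in forebrain (7.96%, 5.02% and 2.94%). The medians over members were 0.16, 0.15 and 0.57, against 0.07, -0.01 and 0.05 for all genes. With quantile normalization the first was 4 and 2 and the second 4 and 1. The 2 forebrain libraries of E11.5 differ (Dcc 11.2 and 26.5 TPM, Plxna2 14.2 and 24.5 TPM), and without the second the counts were 14 and 24 for the comparisons with midbrain and hindbrain. Of the 31 calls, 13 were kept in every alternative run, those of Slit1 and Sema5a against both regions, Epha8 in both of its comparisons, and Robo3, Robo1, Slit3, Plxna2, Plxna4, Sema6c and Efnb2 between forebrain and hindbrain. For those of them with midbrain, no fit within a pseudogene-ratio set exists, since both midbrain P0 libraries are in the high set. There the set and the stage cannot be told apart.

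The Slit and Robo family held the largest of these differences. Slit1 changed by 2.28 ± 0.14 in forebrain and 0.07 ± 0.14 in hindbrain, where it was 30.0 and 27.4 TPM at E11.5 and 31.6 and 28.9 at P0, a difference of 2.21 ± 0.20 (adjusted p = 1.60e-10). Its 3 regions differed at E11.5 and overlapped at P0. Robo3 fell less in forebrain than in hindbrain, by a difference of 3.25 ± 0.42 (adjusted p = 2.07e-07). Robo1 differed by 1.45 ± 0.16 and Slit3 by 1.43 ± 0.20 between the same regions. In the semaphorin pathway Plxna4 differed by 1.76 ± 0.24 and Plxna2 by 1.62 ± 0.21. Plxna2 went from 14.2 and 24.5 to 49.8 and 59.9 TPM in forebrain and from 32.9 and 36.6 to 33.1 and 30.7 TPM in hindbrain.

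Sema5a ran against the trend, with the less positive change in forebrain. It stood at 7.45 and 14.2 TPM in forebrain at E11.5 and 7.56 and 8.0 at P0, 3.44 and 3.9 and 10.51 and 10.49 TPM in midbrain, and 6.86 and 7.25 and 15.9 and 15.7 TPM in hindbrain. The difference was -1.67 ± 0.21 against midbrain (adjusted p = 3.22e-07) and -1.43 ± 0.21 against hindbrain. Forebrain overlapped between stages while the other regions rose. Epha8 rose less in midbrain, where it was already 6.51 and 7.31 TPM at E11.5, by 1.68 ± 0.21 against forebrain and -1.46 ± 0.21 against hindbrain.

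Over the stages without E15.5, 49 members changed in forebrain, 51 in midbrain, 47 in hindbrain and 47 in liver by limma's F test, the highest and lowest stage means lying 1 or more apart, against 51.1%, 51.9%, 48.1% and 62.2% of all genes. The stage mean was highest at P0 in 23 of 68 members in forebrain, 19 in midbrain and 21 in hindbrain, near the 32.7%, 24.5% and 24.1% of all tested genes. The next stages were E16.5 (15 members, 13.2% of all tested genes) and E12.5 (14, 16.4%) in forebrain, E12.5 (13, 14.8%) and E16.5 (11, 14.7%) in midbrain, and E12.5 (14, 13.6%) and E10.5 (11, 16.4%) in hindbrain. All E12.5 libraries are in the high pseudogene-ratio set; within the low set alone, 45, 35, 38 and 46 members changed. Several genes peaked between the ends. In forebrain Plxna2 stood at 9.62 TPM in the 1 library of E10.5, 103 and 96.4 at E16.5 and 49.8 and 59.9 at P0, and Nrp1 at 59.7 and 60.0 TPM at E16.5 and 30.9 and 32.1 at P0. Epha5 had the widest forebrain course, from 1.21 TPM at E10.5 to 67.2 and 58.9 at E14.5, a range of stage means of 4.91 (adjusted p = 4.66e-25). In midbrain Robo1 was highest at E14.5, 97 and 97.6 TPM, against 40.5 and 41.4 at E11.5 and 52.6 and 53.3 at P0. Plxna2, Nrp1 and Robo1 were picked for this paragraph after their values were seen.

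Other genes of the pathway were counted in the same way from 2 lists. Both were chosen with earlier results of these data known, so their counts are no independent support. Of 40 other guidance cues and adhesion receptors, all 40 were higher in brain than in liver (44.0% of all genes were), led by Islr2 (6.75 ± 0.05), L1cam (6.44 ± 0.04) and Chl1 (6.13 ± 0.05); of 50 genes of guidance signal transduction 43 were higher and none lower, led by Crmp1 (7.91 ± 0.04), a mediator of semaphorin signals. From E11.5 to P0, 22 of the 40 rose and 5 fell in forebrain, 16 and 8 in midbrain, 14 and 8 in hindbrain, and 0 and 19 in liver; over all genes 19.2% rose and 11.8% fell in forebrain, 18.3% and 15.1% in midbrain, 16.2% and 11.8% in hindbrain, and 8.14% and 38.2% in liver. In forebrain the adhesion molecules Cntn1 (5.21 ± 0.12) and Chl1 (4.56 ± 0.17) rose most, and the hedgehog ligand Shh (-2.09 ± 0.17) and its co-receptors Gas1 (-2.71 ± 0.14) and Boc (-1.88 ± 0.11) fell. Of the 50, 18 rose and 4 fell in forebrain, 16 and 3 in midbrain, 11 and 1 in hindbrain, and 2 and 35 in liver.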

How the data were processed

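Messenger RNA of 61 mouse libraries (polyA-selected, stranded TruSeq kit, 4 ug input, per the labels' protocols) was deposited by the authors as 1 table of TPM values per gene. STAR 2.4.0k, RSEM 1.2.23 and genome build mm10 are named in the submitters' processing notes, without roles. TPM columns sum to 997627 to 1000000, so depth is lost and read-count precision is unknown; 12104 to 15561 genes reached 1 TPM per library. The 884 rows without a symbol in the gene annotation (GENCODE M21) keep their identifiers.

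Libraries were grouped by tissue and stage of the column headings. Genes with at least 1 TPM in at least 2 libraries (18655) entered 1 linear model of log2(TPM + 1) with a mean per group (R 4.3.3, limma 3.58.1, trended empirical Bayes), checked on simulated data. Pairs of replicates were not identical: at least 91.9% of tested genes differed in each. The gene families and lists were chosen with earlier results of these data known, and the members within a family by symbol. Named in each comparison were up to 3 called members per family and direction and up to 2 uncalled ones with the highest TPM; other names were chosen after their values were seen. Alternatives were another pseudocount, filter, scaling or trend, E15.5 or E12.5 in or out, titles for headings, a pseudogene-ratio term or set, a replicate block and each library left out in turn. With a mean per group, the pseudogene-ratio term is estimated from the pair of hindbrain P0 libraries alone, whose stage labels also disagree for the high-ratio library.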

Additional observations from a re-analysis of the deposited data

Results flagged for a closer look

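A tested difference between regions in the change from E11.5 to P0 marked 31 values. For forebrain minus hindbrain these differences, in log2 units, were Robo3 3.25, Slit1 2.21, Plxna4 1.76, Plxna2 1.62, Robo1 1.45, Sema6c 1.45, Sema5a -1.43, Slit3 1.43, Efnb2 1.25, Plxnb3 -1.24, Sema7a 1.16, Sema6b 1.11, Plxnd1 1.1, Sema3f 1.06 and Nrp2 1.03. For forebrain minus midbrain they were Robo3 1.88, Epha8 1.68, Sema5a -1.67, Slit1 1.43, Epha10 1.26, Plxnd1 1.14, Epha5 1.03, Plxna4 1.01 and Epha7 1.0. For midbrain minus hindbrain they were Epha8 -1.46, Robo3 1.37, Plxnb3 -1.23, Efnb2 1.19, Efna3 1.13, Plxna1 1.05 and Unc5b -1.02.

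Each value rests on 2 libraries per stage and region. Of the 31 calls, 18 were lost in at least 1 alternative: Epha5, Plxna4 and Epha7 between forebrain and midbrain each in 8 or 9 of 18 alternatives, Robo3 between midbrain and hindbrain in 9 of 18, Unc5b there in 7 of 18, Nrp2 and Sema3f between forebrain and hindbrain in 11 and 8 of 19. These tallies count related settings separately, and several leave out the same high-ratio hindbrain P0 library, alone or with others. Plxnb3 went to -0.72 and -0.77 for its differences with the titles as stages, and its level outside hindbrain P0 was at most 1.25 TPM.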

How the results depend on the processing

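The counts of called members kept within 1.5 times of the reported ones except as follows. Midbrain against hindbrain (2) became 4 with a pseudocount of 0.1, 1 with median-of-ratios scaling, 4 with quantile normalization and 1 with E15.5 added, and 1 to 3 with single libraries left out. Forebrain against hindbrain (6) became 11 with the pseudocount of 0.1. Leaving out single libraries gave 6 to 14 and 13 to 24 for the differences in change between forebrain and midbrain (9) and forebrain and hindbrain (15), both highs without forebrain E11.5 replicate 2. Lowest and highest counts for the other comparisons were 57 and 57 (brain against liver), 6 and 9 (forebrain against midbrain), 5 and 6 (forebrain against hindbrain), 33 and 38, 34 and 37, 32 and 35, 34 and 38 (P0 against E11.5 in forebrain, midbrain, hindbrain and liver) and 5 and 9 (change, midbrain and hindbrain). Over stages they were 46 and 51, 48 and 53, 46 and 48, 46 and 48. Directions turned to calls of the other sign for Efna1 (-1.16) and Ephb4 (-1.05) in brain against liver with quantile normalization, and for Sema4b (1.0) and Robo4 (1.02) in liver over time with median-of-ratios scaling; the cause was not tested. Of 3576 values of named members with a library left out, 3519 kept side and direction, and of 2951 under other alternatives 2851. With a replicate block the counts were 57, 9, 2, 6, 36, 35, 35, 38, 6, 6 and 13 in the order brain against liver, forebrain against midbrain, midbrain against hindbrain, forebrain against hindbrain, the 4 tissues over time and the 3 differences. The block ended the Dcc call in hindbrain (-0.88). The numbers were not shown to pair libraries: correlations of same-numbered libraries of 1 stage ran from -0.63 to 0.23 over 33 pairs (10 above 0.1). No value within a pseudogene-ratio set exists for midbrain P0. Depth is unknown, so members near 0 TPM cannot be set against a detection limit.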
